A study of Mus musculus with 4 samples.

Results

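The unfolded protein response and the ATF4 pathway were followed here through 10 genes, chosen by name, of 50600 genes measured: Xbp1, Atf4, Atf6, Ddit3, Ern1, Chac1, Trib3, Asns, Sesn2 and Herpud1. The RNA came from 4 libraries of primary T helper 17 (Th17) cells of the C57BL/6NJ strain, which are CD4 T cells differentiated in culture to make IL-17. Biological replicate numbers 1 to 4 are in the labels, beside 1 donor entry for all of them. The labels do not say whether the cells came from separate cultures or animals, so p-values measure only the spread between these samples. The Y-linked Ddx3y and the X-linked Xist, given below, put replicates 1 and 2 apart from 3 and 4, so the 4 did not share a single animal, while the spread within each of those pairs may be technical. They give no treatment, the age is unknown, and a time of 24 hours appears only in the headers of the tables. There is 1 group and no stressed or untreated control, so what follows describes levels and their spread, not a response. In bulk RNA, fewer cells that express a gene and less of its RNA per cell cannot be told apart.

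Secretory and membrane proteins fold in the endoplasmic reticulum (ER), and when unfolded protein accumulates there, 3 sensors in its membrane signal to the nucleus. IRE1, the product of Ern1, splices the Xbp1 transcript so that it codes for an active transcription factor. ATF6 moves to the Golgi and is cut there to release its own transcription factor, and PERK, the product of Eif2ak3, phosphorylates eIF2alpha, which slows translation in general while translation of the Atf4 transcript rises. Other kinases, among them GCN2, which senses amino acid shortage, meet PERK at the same step, so ATF4 serves both ER stress and amino acid supply. In T cells ATF4 is known for the supply of amino acids to cells that grow after activation. Counts per gene do not separate spliced from unspliced Xbp1, and they do not measure the translation of Atf4 or the cleavage of ATF6.

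Promoter letters are shown first, because some of them match elements that the regulators of the response are known to bind; no binding was measured here. ATF4 binds with C/EBP partners to an element with the core TGATGNAA, and ATF6 and XBP1 bind ER stress elements. RefSeq windows around the start of transcription (build GRCm38.p6, the assembly called mm10) were matched by symbol to 9 of the 10 genes, all but Atf6. The motifs searched, on both strands, were TGATGNAA, the ER stress element (CCAAT and CCACG set 9 bases apart), its second form and the unfolded protein response element TGACGTGG. The second form was searched with any base at its middle position, and reads ATTGGGCCACG in Herpud1. No matches of different motifs overlapped in these windows. The stretches that hold a match are printed 5′ to 3′ along the strand of the gene, with the match in capitals. Those of Herpud1, Chac1 and Asns lie before the RefSeq start site. That of Trib3, at bases 4 to 33 from its RefSeq start site, is limited to the match and its flanks. The annotation used for counting sets other starts. The counted Asns gene starts at 7693254 and includes its match, while the counted Trib3 gene starts at 152344032, after its match.
Herpud1 (chr8:94386309-94386428, plus strand): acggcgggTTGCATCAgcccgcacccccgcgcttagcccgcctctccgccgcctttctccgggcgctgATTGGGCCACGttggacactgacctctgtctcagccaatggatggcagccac
Chac1 (chr2:119351022-119351141, plus strand): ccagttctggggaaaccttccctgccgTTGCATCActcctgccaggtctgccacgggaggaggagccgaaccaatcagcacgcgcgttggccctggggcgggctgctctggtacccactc
Asns (chr6:7693210-7693329, minus strand): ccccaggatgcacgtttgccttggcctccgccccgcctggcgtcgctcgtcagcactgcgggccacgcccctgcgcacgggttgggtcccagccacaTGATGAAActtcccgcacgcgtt
Trib3 (chr2:152344028-152344057, minus strand): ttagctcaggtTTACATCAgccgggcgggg

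The core TGATGNAA, or its reverse complement TTNCATCA, was found in the windows of Asns, Chac1, Herpud1 and Trib3. It was also found in 1304 of all 32851 windows of the same length (3.97%). The second form of the ER stress element was found in the Herpud1 window, 52 to 42 bases before the start site, and in 12 of all windows (0.0365%). No member window held the other 2 motifs, which 0.119% (the ER stress element) and 0.676% (TGACGTGG) of all windows held. A match is a run of letters in these windows, not a measured site, and other bases up- or downstream were not searched.

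The 10 genes spanned 3 orders of abundance. Levels are given in TPM, a share of all transcripts scaled by exon length, computed from the deposited counts and exon lengths, so they can be compared between genes. From the highest to the lowest mean the order was Atf4, Sesn2, Herpud1, Atf6, Xbp1, Asns, Ddit3, Ern1, Trib3 and Chac1. The transcription factor gene Atf4 stood above the other 9, while Chac1, one of the genes ATF4 is known to switch on, lay near 1 TPM. Of the 10 genes, 9 passed as above 1 TPM and 0 as below. The test was the two-sided quasi-likelihood F test of edgeR, Benjamini-Hochberg adjusted over 21764 protein-coding genes, at 0.05. Of all protein-coding genes 45.9% were called above by edgeR, and 45.7% by DESeq2, which placed the same number of members above. The largest adjusted p among the 9 was that of Trib3 at 6.78e-44, and these p-values borrow the spread of other genes of like abundance. Their size depends on the fit. For Trib3 the edgeR adjusted p was 3.48e-14 when genes under a mean of 10 counts were left out. With limma on log2(TPM + 0.5) it was 6.95e-05 for Trib3 and 0.000158 for Ddit3.

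**Figure D1:**
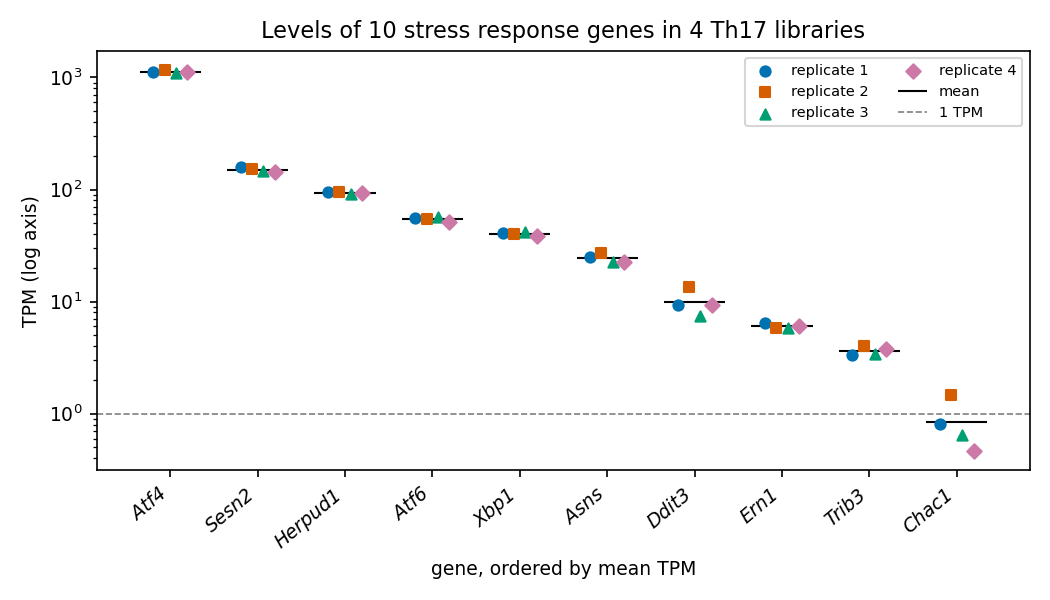
TPM on a log axis for each of the 10 genes in each of the 4 Th17 libraries, with the mean as a black line and 1 TPM dashed. Atf4 lies at 1091 to 1169 TPM and Chac1 at 0.461 to 1.48 TPM, and only the points of Chac1 fall on both sides of 1 TPM.

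The sensors of the ER were expressed at different levels. Ern1 (ENSMUSG00000020715, chromosome 11, 106394650 to 106487852, minus strand) gave 6.47, 5.84, 5.87 and 6.09 TPM in replicates 1 to 4. Atf6 (ENSMUSG00000026663, chromosome 1, 170704674 to 170867771, minus strand) gave 55.5, 54.7, 56.6 and 51.8 TPM. Each sensor was even across the libraries, with replicate 1 the highest for Ern1 and replicate 4 the lowest for Atf6. Within each library Ern1 stood at 0.104 to 0.118 of the level of Atf6, a difference of -2.98 ± 0.08 (SD, n = 4) on the log2(TPM + 1) scale. Ern1 was also below Eif2ak3, which codes for PERK, in 4 of 4 libraries, with a difference of -1.22 ± 0.09 on the same scale and Eif2ak3 at 15.5 ± 0.536 TPM. The ATF6 paralog gene Atf6b was at 134 ± 6.45 TPM, above Atf6 in 4 of 4 libraries (Atf6 minus Atf6b, -1.27 ± 0.05).

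Xbp1 RNA was more abundant than Ern1 RNA in 4 of 4 libraries. Xbp1 (ENSMUSG00000020484, chromosome 11, 5520659 to 5525893, plus strand) gave 41.0, 39.8, 42.2 and 38.5 TPM in replicates 1 to 4. These values lay close together, and the ratio of Xbp1 to Ern1 was 6.31 to 7.19 over the libraries. On the log2(TPM + 1) scale Xbp1 exceeded Ern1 by 2.55 ± 0.08 (SD, n = 4). Rtcb, the ligase that joins the cut ends of Xbp1, was the highest of the 12 genes of the sensor list at 376 ± 8.71 TPM. Of that list, which includes Ern1, Atf6 and Xbp1, 10 genes passed as above 1 TPM and 1 as below, with 1 not placed. The median of the list was 22.3 TPM beside 0.411 TPM for all protein-coding genes, of which 7704 had no count. Among genes called above 1 TPM only, the medians were 28.6 TPM for the list and 32.5 TPM for all protein-coding genes. Creb3l1, an ER-bound factor related to ATF6, was the one not placed, at 0.876 ± 0.105 TPM (edgeR adjusted p = 0.398). Ern2, the IRE1 paralog of mucosal epithelium, had no count in any library, and 3 counts summed over the libraries would set its limit at 0.0236 TPM. DESeq2 gives no p for a gene without counts, so it placed 0 genes of the list below.

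Atf4 (ENSMUSG00000042406, chromosome 15, 80255184 to 80257540, plus strand) was the most abundant of the 10 at 1120, 1169, 1091 and 1115 TPM in replicates 1 to 4, a mean of 1124 ± 32.9 TPM (SD, n = 4). It ranked 104th of all protein-coding genes and its highest library was 1.07 times its lowest. With the length of the longest annotated transcript in place of the merged exon length, the mean was 759 ± 22.1 TPM, and Atf4 remained the highest of the 10. That transcript comes from a later annotation release and has 2019 bases, more than the 1724 bases of merged exons that were counted. The lengths of all genes change in this alternative. Sesn2, whose own length did not change, went from a mean of 151 TPM to 119 TPM.

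The direct targets of ATF4 among the members lay far below it and far from each other. Sesn2 (ENSMUSG00000028893, chromosome 4, 132492032 to 132510501, minus strand) codes for sestrin 2, which restrains mTORC1 when leucine is short. It gave 160, 152, 146 and 144 TPM in replicates 1 to 4, the second highest of the 10. Asns (ENSMUSG00000029752, chromosome 6, 7675169 to 7693254, minus strand), the gene of asparagine synthetase, gave 25.2, 27.2, 22.7 and 22.6 TPM. Trib3 (ENSMUSG00000032715, chromosome 2, 152337422 to 152344032, minus strand), a pseudokinase gene whose product dampens ATF4 activity, gave 3.36, 3.98, 3.44 and 3.78 TPM. Asns was highest in replicate 2 and then replicate 1, with the other libraries about equal, while Sesn2 was highest in replicate 1 and then replicate 2. Both genes were thus higher in replicates 1 and 2 than in replicates 3 and 4, the pairs that Ddx3y and Xist set apart. The same held for Atf4, Herpud1 and Chac1, but not for the other members. The part of that split in these levels was not tested.

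Ddit3 and Chac1, which are known to mark a strong or lasting stress response, were the least even of the 10. Chac1 was the lowest of them, while Ddit3 lay above Ern1 and Trib3. Ddit3 (ENSMUSG00000025408, chromosome 10, 127290774 to 127296288, plus strand) codes for CHOP, a factor tied to cell death under prolonged ER stress. It gave 9.30, 13.6, 7.46 and 9.34 TPM in replicates 1 to 4, from 194, 135, 133 and 233 counts. Within each library Atf4 exceeded Ddit3 85.9- to 146-fold, a difference of 6.71 ± 0.29 (SD, n = 4) on the log2(TPM + 1) scale. With the lengths of the longest transcripts this difference was 5.70 ± 0.29, from means of 759 TPM for Atf4 and 13.9 TPM for Ddit3. Chac1 (ENSMUSG00000027313, chromosome 2, 119351229 to 119354381, plus strand) codes for an enzyme that degrades glutathione. It gave 0.802, 1.48, 0.646 and 0.461 TPM, from 16, 14, 11 and 11 counts. For both genes replicate 2 stood above the other 3 libraries.

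The level of Chac1 could not be placed on either side of 1 TPM (edgeR adjusted p = 0.356), nor when any 1 replicate was left out, with adjusted p-values from 0.140 without replicate 2 to 0.769 without replicate 4. Its mean was 0.847 ± 0.443 TPM over all libraries (SD, n = 4) and 0.637 ± 0.171 TPM over the 3 without replicate 2. The mean of Ddit3 was 9.93 ± 2.61 TPM, and 8.70 ± 1.07 TPM without replicate 2. Asns exceeded Chac1 18.4- to 49.1-fold over the libraries.

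Herpud1 (ENSMUSG00000031770, chromosome 8, 94386438 to 94395377, plus strand) codes for an ER membrane protein of the machinery that hands misfolded proteins to the proteasome, and its promoter is the one with the second form of the ER stress element. It gave 95.01, 95.1, 90.9 and 92.9 TPM in replicates 1 to 4 and had the smallest CV (SD over mean) of the 10, 2.15%. Hspa5, the gene of the ER chaperone BiP and another known target of the response, stood at 932 ± 21.9 TPM. Herpud1 was at 0.0958 to 0.104 of it in each library, a difference of -3.30 ± 0.05 (SD, n = 4) on the log2(TPM + 1) scale.

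Each neighbour in the order of the 10 was separated from the next in 4 of 4 libraries. The order was taken from the means of these same libraries, so the steps between neighbours are no independent test of it. The closest neighbours were Atf6 and Xbp1, at 1.34 to 1.38 times in each library, a log2(TPM + 1) difference of 0.43 ± 0.02 (SD, n = 4). The steps from Ddit3 to Ern1, at 0.60 ± 0.35 with a ratio of 1.27 to 2.33, and from Trib3 to Chac1, at 1.36 ± 0.29 with a ratio of 2.70 to 8.19, were uneven over the libraries. In all, 23 differences were compared, 9 between neighbours and 14 between pairs fixed by role. Each had the same sign in 4 of 4 libraries and an exact sign-flip permutation p of 0.125, two-sided, which is the smallest that 4 libraries allow and does not change with Benjamini-Hochberg adjustment, so none can pass 0.05.

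The paralogs of the members had other levels than the members themselves. Trib2 and Trib1, pseudokinase genes of the same family as Trib3, were at 52.1 ± 5.73 TPM and 16.7 ± 0.803 TPM (SD, n = 4), and both exceeded Trib3 in 4 of 4 libraries. The differences of Trib3 from them were -3.51 ± 0.16 and -1.94 ± 0.05 on the log2(TPM + 1) scale. Among the sestrin genes the order was the opposite. Sesn2 exceeded Sesn3, at 20.6 ± 1.82 TPM, by 2.81 ± 0.12 (2.09 with the lengths of the longest transcripts), and Sesn1, which p53 is known to regulate, at 7.25 ± 0.656 TPM, by 4.20 ± 0.14 on that scale. Chac2, the constitutive relative of Chac1, was at 19.1 ± 0.827 TPM, and the difference of Chac1 from it was -3.47 ± 0.35.

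None of the 10 genes varied between libraries beyond the trend for genes of its abundance. In this test the deviance of each gene at edgeR's trended dispersion was set against chi-square, one-sided, over the 12849 genes that averaged 10 counts or more, and 0.366% of them (47) passed after adjustment. The edgeR adjusted p of Ddit3 was 0.767. It was the 1 member with an unadjusted p under 0.05, beside 4.89% of all genes. With 1 common dispersion in place of the trend Ddit3 passed (edgeR adjusted p = 0.0498), as did 356 of all genes, and without replicate 2 its unadjusted p was 0.489. Ddit3 had a CV of 26.3% where genes within 1.5-fold of its mean count had a median of 11.7%, and Chac1 a CV of 52.3% where such genes had 39.6%. The CV was also above that of such genes for Asns (8.97% beside 6.29%), Sesn2 (4.74% beside 3.46%) and Atf6 (3.79% beside 3.48%). It was below it for Atf4 (2.93% beside 3.15%), Herpud1, Xbp1, Ern1 and Trib3.

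**Figure D2:**
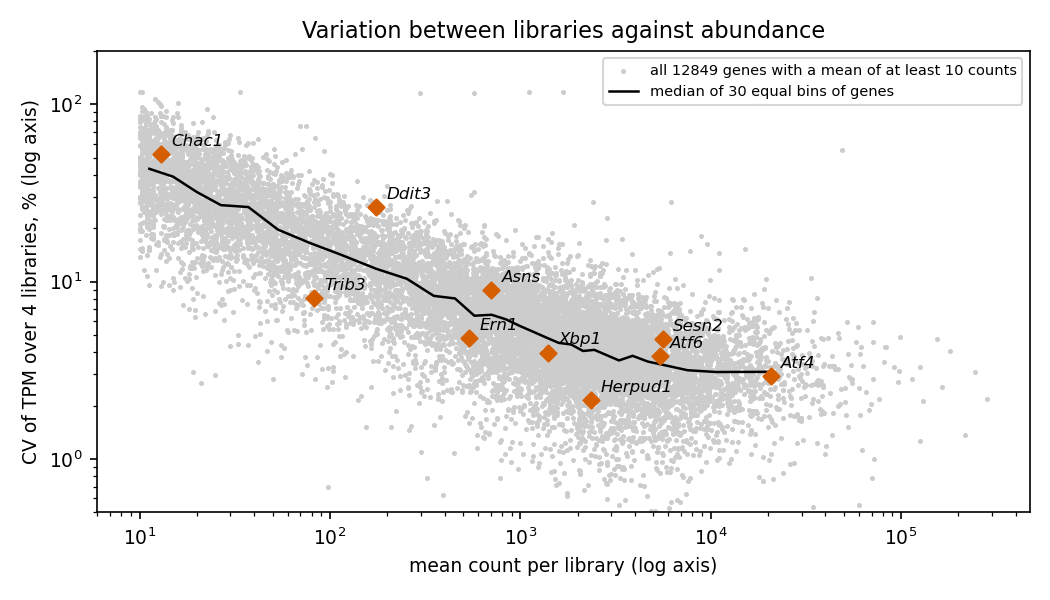
CV of TPM over the 4 libraries against the mean count, both on log axes, for 12849 genes (grey), with the median of 30 equal bins as a line and the 10 genes as labelled diamonds. Ddit3 (26.3%) lies above the line for its count, and Herpud1 (2.15%) and Trib3 (8.05%) lie below it.

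Replicate 2 held the highest TPM for Atf4, Herpud1, Asns, Ddit3, Trib3 and Chac1, 6 of the 10, beside 24.9% of the 12849 genes tested for variation. For Herpud1 this was close to a tie, with 95.1 TPM in replicate 2 and 95.01 TPM in replicate 1, and Chac1 had 14 counts in replicate 2. Replicate 1 was highest for 2 members (Sesn2 and Ern1) beside 32.6% of those genes, replicate 3 for 2 (Atf6 and Xbp1) beside 19.6%, and replicate 4 for 0 beside 22.9%. The level in replicate 2 was 1.57 times the mean of the other libraries for Ddit3, 2.32 times for Chac1 and 1.16 times for Asns. It was 1.05 times that mean for Atf4 and 1.02 times for Herpud1. In the list of 18 stress and signalling genes known to be regulated by ATF4, which holds 4 of the members, replicate 2 was highest for 8 of the 11 genes that averaged 10 counts or more. Among the 7 others of those 11 these were Ddit4, Ppp1r15a, Eif4ebp1, Cebpb and Atf3. This pattern was noticed after the values were seen, and 3 of those 8 genes are the members Ddit3, Trib3 and Chac1. In other lists replicate 2 was highest for 2 of 18 chaperones, 4 of 16 amino acid genes, where replicate 1 was highest for 11, and 3 of 11 synthetases. Replicate 2 was highest for 7 of 14 degradation genes, 5 of 11 sensor genes and 3 of 11 eIF2alpha regulators. The same held for 3 of 8 Trib and Sesn paralogs and 0 of 2 IRE1-dependent substrates. It was highest for 26 of the 87 pathway genes outside the members that averaged 10 counts or more. Replicate 2 was also the shallowest library and had the lowest summed level of the 8 Th17 markers, 749 TPM beside 871 to 926 TPM in the others. Il17f (391 TPM of that sum in replicate 2, edgeR adjusted p of its variation 0.0470), Il17a, Il23r, Ccr6 and Il1r1 were each lowest there. The other markers, Rora, Ahr and Il21, were lowest in replicate 4 and above their means in replicate 2. Ahr also varied (edgeR adjusted p = 6.08e-05), at 31.4 TPM in replicate 2 beside a mean of 29.8 TPM. The part of depth or of these markers in the pattern was not tested.

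**Figure D3:**
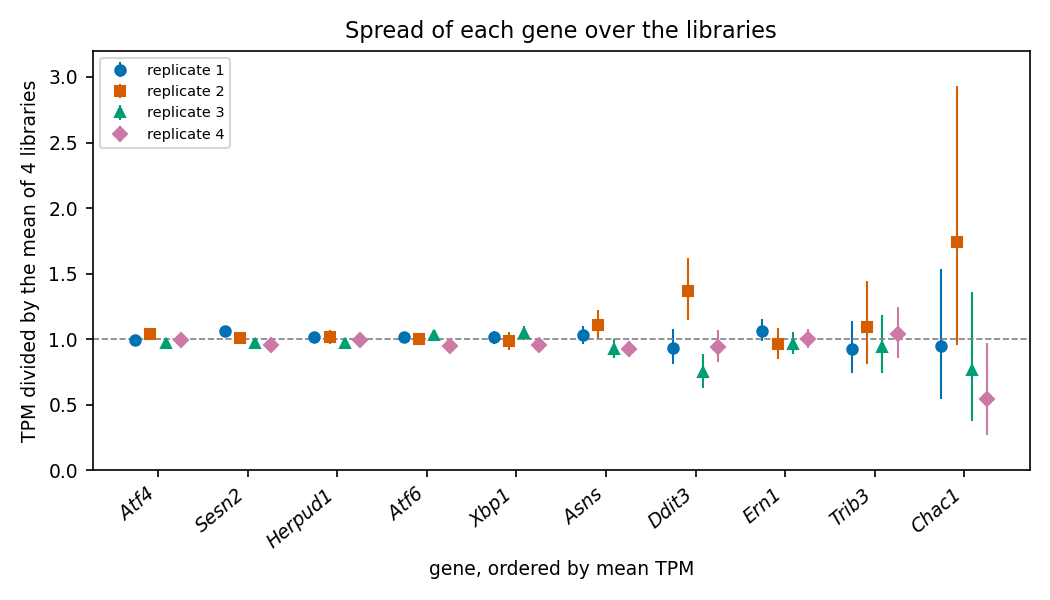
TPM of each gene in each library divided by its mean over the 4 libraries; bars are exact 95% Poisson intervals of the count and cover counting error only. Replicate 2 (squares) stands apart for Ddit3, where it is 1.57 times the mean of the other libraries. For Chac1 replicate 2 is also the highest, but its interval overlaps those of the other libraries. The intervals of Chac1 are wide because each library holds 11 to 16 counts.

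For the 2 members with the largest SD of log2(TPM + 1), the genes nearest in level and pattern were sought by Euclidean distance on that scale over the 4 libraries. Nearest to Ddit3 were the activity-induced factor gene Npas4 at a distance of 0.27, Ebpl at 0.33 and the ubiquitin ligase gene Trim13 at 0.33. Nearest to Chac1 were Susd4 at 0.14, Gmpr at 0.19 and 2310034G01Rik at 0.21. With 4 libraries such nearness rests mostly on level, and it describes these libraries only.

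The genes around the members were taken from 9 pathway lists. Outside the 10 members these held 100 different genes, of which 85 passed as above 1 TPM and 14 as below, beside 45.9% above and 51.5% below for all protein-coding genes, and 0 varied between libraries beyond the trend (edgeR, 87 tested, 5 with an unadjusted p under 0.05, beside 4.89% of all genes). The regulators of eIF2alpha were all expressed, 11 of 11 above 1 TPM. Eif2s1, the gene of eIF2alpha itself, stood at 262 ± 10.2 TPM (SD, n = 4), Eif2b5, a subunit of the exchange factor that phosphorylated eIF2alpha blocks, at 222 ± 10.6 TPM, and the interferon-induced kinase gene Eif2ak2 was the lowest at 9.59 ± 0.315 TPM. Eif2ak4, the gene of the amino acid sensor GCN2, was at 18.1 ± 0.835 TPM and slightly above Eif2ak3 in 4 of 4 libraries (Eif2ak3 minus Eif2ak4, -0.21 ± 0.10 on the log2(TPM + 1) scale). Of the phosphatase subunits that end the signal, the constitutive Ppp1r15b at 170.1 ± 6.37 TPM exceeded the stress-induced Ppp1r15a at 45.5 ± 3.61 TPM, with a difference of Ppp1r15a from it of -1.88 ± 0.10.

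The chaperones and folding enzymes of the ER formed one of the most abundant lists. All 18 were above 1 TPM, with a median of 174 TPM. Calr, the calcium-binding chaperone calreticulin, was at 1207 ± 32.6 TPM (SD, n = 4), followed by Hspa5 and by the disulfide isomerase gene P4hb at 866 ± 19.1 TPM, and the oxidase gene Ero1lb was the lowest at 3.93 ± 0.384 TPM. In the list of ER-associated degradation, which holds Herpud1, 13 of 14 genes were above 1 TPM and 1 below, with a median of 53.1 TPM. Vcp, the ATPase that pulls proteins from the membrane, stood at 314 ± 7.56 TPM, and Derl1 and Selenos, parts of the membrane channel complex, at 169 ± 5.71 and 143 ± 3.69 TPM. Derl3, a relative of Derl1 known as a target of the response, was the one below, at 0.474 ± 0.148 TPM. Of the 50-base words of Vcp 40.5% also occur in other genes, so its level is uncertain. With the length of its longest transcript Derl3 was not called below 1 TPM.

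Genes that ATF4 is known to regulate were taken in 3 lists, whose ranges of level overlapped. Of 17 genes of amino acid synthesis and transport, which include Asns, 16 were above 1 TPM and 1 below, with a median of 127 TPM. The serine and folate enzyme gene Shmt2 was at 565.5 ± 4.26 TPM (SD, n = 4), and the amino acid transporter genes Slc7a5 and Slc1a5 at 382 ± 21.1 and 349 ± 11.4 TPM. Slc7a11, the cystine transporter gene, was below at 0.0137 ± 0.0113 TPM. All 11 aminoacyl-tRNA synthetase genes were above 1 TPM, with a median of 171 TPM, from Cars at 56.1 ± 2.45 TPM to Nars at 568 ± 15.6 TPM, Gars at 496 ± 9.30 TPM and Iars at 320.0 ± 15.1 TPM.

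Of 18 stress and signalling genes, including Sesn2, Ddit3, Trib3 and Chac1, 10 passed as above 1 TPM and 7 as below, and Chac1 was not placed; the median was 3.42 TPM. Ddit4, which restrains mTORC1 as sestrin 2 does, was the highest at 278 ± 21.7 TPM (SD, n = 4), followed by Sesn2 and Ppp1r15a. Fgf21 and Adm2, which code for secreted factors, had no count, with limits of 0.0735 and 0.0670 TPM from 3 counts summed over the libraries. Gdf15, another secreted factor, was below 1 TPM, with 1 count in each of replicates 1 and 3. Of the 6 transcripts known to be cut by IRE1 in other cells, 2 were above 1 TPM and 4 below: Hgsnat at 24.8 ± 2.19 TPM and Bloc1s1 at 9.14 ± 0.729 TPM, beside Pdgfrb at 0.0754 ± 0.0534 TPM and Sparc, Col6a1 and Scara3 with no count. Bloc1s1 shares 47.7% of its 50-base words with other genes, so its level is uncertain. The lists were chosen with earlier results of these data known, so these counts describe the genes and set no list apart.

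The libraries held 41360302, 19332509, 34979616 and 48558772 counts in replicates 1 to 4, at which 3 counts in 1 kb of exon equal 0.206 to 0.518 TPM. The Th17 label was checked against 8 marker genes, all above 1 TPM, with Il17f at 492 ± 71.4 TPM (SD, n = 4) and Il17a at 46.0 ± 6.13 TPM, and 5 of 5 tested T cell markers were above. Of 9 B cell and plasma cell markers 8 were below, at a summed level of 5.73 to 6.56 TPM per library that came mostly from Sdc1, with Ms4a1 and Jchain at or near 0. The 6 macrophage and dendritic, 5 neutrophil and 5 erythroid markers were all below 1 TPM, as were 3 of 4 CD8 T cell markers (not Cd8b1) and 5 of 6 stromal and epithelial ones (not Epcam). The Y-linked Ddx3y gave 77.8, 58.9, 0.240 and 0.0925 TPM and Xist 0.916, 1.01, 154 and 152 TPM in replicates 1 to 4, although 1 donor is listed, and the part of this in the members' levels was not tested. No pair of libraries was a duplicate, with a chi-square per degree of freedom of 4.52 to 12.5.

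Little of the annotated sequence of the members was shared with other genes on the same strand, though the origin of their reads was not measured. None shared more than 3.27% of its 50-base words with another gene on the same strand, the value of Ddit3. Ddit3 overlaps Mars, the gene of methionyl-tRNA synthetase at 286 ± 11.5 TPM, by 68 bases in the other orientation. The counting used strand, and the share of reads that carry the wrong strand was not tested. Sesn2 contains Gm12981 on its own strand, which had 4 to 18 counts per library, beside 3048 to 7286 for Sesn2.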

How the data were processed

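Gene counts of 4 libraries of Th17 cells (total RNA-seq, per the labels) were used. The authors counted read pairs on exons of GENCODE M13 with featureCounts 1.4.6-p4, in the reverse-stranded mode and requiring both ends to map, per the file headers; these deposited counts are raw. The option to count multi-mapping reads was not set. No source used here gives an aligner version. The labels say total RNA, while the protocol they link is named for poly(A)+ libraries. Merged exon lengths stand in the same deposited tables.

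Symbols came from GENCODE M21 by Ensembl identifier, which matched 50376 of 50600 genes (99.6%), and promoters from RefSeq. TPM was computed over all genes. For levels, R 4.3.3 with edgeR 4.0.16 was used (quasi-likelihood F test of the intercept, offset at 1 TPM), and for variation the same with TMM and trended dispersions. Pairs of genes were compared within libraries as log2(TPM + 1). The tests were checked on simulated counts. Alternatives were DESeq2 1.42.0, limma 3.58.1, other levels, filters, lengths, denominators and pseudocounts, and leaving out each replicate.

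The members, lists and tests were chosen with earlier results of these data known. The text names the 10 members, the genes of the pairs, the 3 highest and the lowest gene of each list and those on neither side of 1 TPM, and the 3 genes nearest to the 2 most variable members. Any other gene in the text was picked with its values in view. Intervals and limits cover counting error only, since PCR copies cannot be told from separate molecules.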

Additional observations from a re-analysis of the deposited data

Results flagged for a closer look

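In 68 groups of 4 values, of 45 named genes and 23 differences between genes, the highest or lowest library was checked for a gap to the others that is large for 4 values. Chance flags about 1 in 20 such groups, and 2 were flagged, neither of them a member. Eif2s1 stood at 277 TPM in replicate 3, above the other libraries, and Gars at 483 TPM in replicate 4, below the others. Ddit3 and Chac1 in replicate 2 did not reach the line.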

How the results depend on the processing

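The 9 members above 1 TPM stayed above it under all 11 alternatives run, as did the direction of all 23 differences between genes under the 7 alternatives run for them. The length of the longest transcript, taken from a later annotation release than the one counted, was an alternative chosen after seeing the data. It moved the difference between Atf4 and Ddit3 from 6.71 to 5.70 and that between Sesn2 and Sesn3 from 2.81 to 2.09 (log2). Chac1 was below 2 TPM (edgeR adjusted p = 0.000361), so 1 member was below at that level. Its estimate lay above 0.5 TPM without a call (edgeR adjusted p = 0.0722). The change of side follows from the level chosen, while the call against 2 TPM is a result of the test. Against 2 TPM the sensor list had 2 genes below and the Trib and Sesn paralogs 1, and against 0.5 TPM the degradation list had 0 below. With the longest transcript the sensor list had 2 below and the degradation list 0. DESeq2's Wald test placed 3363 protein-coding genes below 1 TPM where edgeR placed 11211, since 7704 genes had no count and no p; it placed 0 of the sensor list and 1 of the IRE1-dependent substrates below. With genes under a mean of 10 counts left out, 766 protein-coding genes were below, and 0 in the sensor, amino acid, stress and signalling, and IRE1-dependent lists, because the low genes were not tested. With a common dispersion 356 genes varied, 1 of them a member (Ddit3). Leaving out each replicate gave 24 to 39 varying genes, 24 of them without replicate 4, and 0 members; the cause was not tested. No paired comparison between groups was possible because there is 1 group.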
